A study of Homo sapiens with 6 samples.

Results

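Box H/ACA small nucleolar RNAs were taken from the deposited expression table as the entries whose symbol begins with SNORA and a number and whose mean over the 6 libraries was at least 1 RPKM (reads per kilobase of exon, scaled to the reads counted in genes). Members were thus chosen by their mean level and by no difference between groups. There were 134 of them among 23858 listed genes. They carry 77 symbols, 31 of which occur more than once, and entries that share a symbol were kept apart by gene identifier. All 134 listed SNORA genes passed the level. The table holds only genes with more than 20 reads summed over the libraries, and SNORA genes under that limit are not analysed here. The members just above the level were SNORA81 on chromosome 18, SNORA51 on chromosome 7 and SNORA7 on chromosome 11, with means of 1.09, 1.17 and 1.20 RPKM. In 8 members the mean of the control group was under 1 RPKM and in 2 that of the treated group, so these passed through 1 group alone. Of them SNORA18 on chromosome 5 and SNORA72 on chromosome 2 were called higher in the comparison below, a direction that the level favoured, and they support nothing here.

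The cells were NB4, an established line from human acute promyelocytic leukaemia whose cells express the fusion of PML and RARA. They were left as controls or given arsenic trioxide, a drug used against this leukaemia, for 6 h, with 3 libraries in each group. Neither the dose nor the handling of the controls is stated in the labels. Total RNA was depleted of ribosomal RNA, and the named library kit does not mark strand. The labels do not say whether replicates came from separate cultures, so the p-values speak only of the spread among these libraries, which may be technical.

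H/ACA RNAs fold into a pair of hairpins joined by a hinge that holds the H box, and they end in the letters ACA a few bases before the 3′ end. Loops in the hairpins pair with ribosomal RNA and place a uridine in front of the pseudouridine synthase dyskerin, encoded by DKC1, which works together with the small proteins encoded by NHP2, NOP10 and GAR1. In vertebrates most H/ACA RNAs are cut out of introns of host genes, many of which encode ribosomal proteins, translation factors or nucleolar proteins, while other hosts are non-coding RNAs whose exons have no known protein product. A host gene and its small RNA are therefore made in 1 transcript but mature and decay apart.

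The sequences below are those of members on which the results turn, from the GENCODE 29 transcripts on GRCh38, each written from 5′ to 3′ on the strand of the gene. Capitals mark the match to the H box (ANANNA, N any base) nearest the middle of the RNA and an ACA within the last 6 bases. SNORA75 (chr2:231455800-231455936, minus strand, in the nucleolin gene NCL), SNORA33 (chr6:132817219-132817348, plus, in RPS12), SNORA13 (chr5:112161485-112161617, plus, in EPB41L4A-AS1), SNORA26 (chr4:52713249-52713370, plus, in DANCR), SNORA79 (chr14:20323179-20323326, minus, in CCNB1IP1, named SNORA79B in the annotation) and SNORA42 (chr16:30419625-30419759, minus, with no listed host) are shown because they fell. SNORA28 (chr14:103337849-103337974, plus, in EIF5) and SNORA81 (chr21:31664306-31664482, plus, in SOD1) are shown because they rose.
SNORA75: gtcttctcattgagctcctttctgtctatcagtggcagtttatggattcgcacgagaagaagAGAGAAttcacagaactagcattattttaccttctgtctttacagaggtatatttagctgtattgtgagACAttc
SNORA33: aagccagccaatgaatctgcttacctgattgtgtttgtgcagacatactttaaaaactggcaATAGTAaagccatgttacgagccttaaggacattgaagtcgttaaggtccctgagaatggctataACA
SNORA13: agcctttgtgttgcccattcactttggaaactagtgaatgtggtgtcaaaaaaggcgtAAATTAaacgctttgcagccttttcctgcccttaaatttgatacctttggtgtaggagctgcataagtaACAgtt
SNORA26: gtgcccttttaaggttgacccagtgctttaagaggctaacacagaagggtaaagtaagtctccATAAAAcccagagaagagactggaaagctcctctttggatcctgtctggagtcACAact
SNORA79: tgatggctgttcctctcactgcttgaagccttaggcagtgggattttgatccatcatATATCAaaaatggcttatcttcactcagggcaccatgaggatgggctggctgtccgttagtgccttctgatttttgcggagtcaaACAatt
SNORA42: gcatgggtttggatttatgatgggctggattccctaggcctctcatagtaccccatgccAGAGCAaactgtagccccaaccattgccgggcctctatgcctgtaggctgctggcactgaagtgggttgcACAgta
SNORA28: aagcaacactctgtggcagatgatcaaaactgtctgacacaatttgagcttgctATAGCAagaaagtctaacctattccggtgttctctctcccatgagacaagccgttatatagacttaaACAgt
SNORA81: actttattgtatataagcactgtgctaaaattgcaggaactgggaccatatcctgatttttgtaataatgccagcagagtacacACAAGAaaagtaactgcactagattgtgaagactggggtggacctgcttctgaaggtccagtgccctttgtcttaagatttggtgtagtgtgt
The next pair is shown for the shared host. SNORA71A (chr20:38427309-38427442, minus) and SNORA71C (chr20:38429670-38429803, minus) lie in the same host, SNHG17, and share 83.1% of their bases in a global alignment. SNORA71C also holds the match marked in SNORA71A, at the same place, but in lower case because another match lies nearer its middle. The capitals in the hinge thus mark different places in this pair.
SNORA71A: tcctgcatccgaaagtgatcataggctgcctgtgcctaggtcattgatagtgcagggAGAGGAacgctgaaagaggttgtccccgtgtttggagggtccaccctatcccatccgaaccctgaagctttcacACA
SNORA71C: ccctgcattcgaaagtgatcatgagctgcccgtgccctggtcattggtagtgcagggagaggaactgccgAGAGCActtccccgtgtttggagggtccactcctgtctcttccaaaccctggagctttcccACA

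The label H/ACA was checked against these sequence features. An ACA in the last 6 bases was found in 105 of 134 members (78.4%), an ANANNA match in the central stretch of the RNA (the middle 1 of 3 equal parts) in 114 (85.1%), and both in 91. ANANNA is a loose pattern. In the middle 135 bases of 83040 protein-coding transcripts, searched in the same way on the transcript strand, 52.1% held it, 7.01% ended in ACA by the same rule, and 3212 windows held both. Among 64 listed box C/D RNAs, the other large class of small nucleolar RNAs, 23 had the ANANNA match, 10 the ACA and 2 both. The annotation gives 61 of the members a SNORA symbol and the other 73 only a number of the Rfam collection of RNA families, which marks copies found by similarity. Both features were present in 52 of the 61 and in 39 of the 73. The SNORA81 on chromosome 21 printed above is one of the copies with an Rfam number and has no ACA in its last 6 bases. A missing match says only that these letters are not in the annotated stretch.

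Members were 81 to 272 bases long (median 135). Mean reads per library ran from 3.5 to 714 (median 17.6), 61 members had at least 20 and 11 had at least 100. In a gene of the median length 1 read is worth 0.328 to 0.383 RPKM, depending on the library, and 3 reads, the upper limit that a count of 0 allows, 0.983 to 1.15 RPKM. These limits cover counting error only. Near-identical copies make the division of reads uncertain for 21 members, which form 14 pairs of at least 90% identity, such as SNORA15B-1 and SNORA15B-2 on chromosome 7 (100%) and SNORA22 and SNORA22C (98.5%). A same-strand gene of the table encloses 81 members, the span of 38 others lies only within a gene on the opposite strand, and 15 lie in no listed gene. Because strand was not kept, reads of a member cannot be told apart from those of an unspliced host transcript or of a gene on the other strand. Exons of another annotated gene are overlapped by 3 members (SNORA53, SNORA31 on chromosome 13 and SNORA70 on chromosome 3).

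SNORA73B, also known as U17, an H/ACA RNA that acts in the cleavage of ribosomal precursor RNA rather than as a pseudouridine guide, had the highest level. It stood at 182, 166 and 178 RPKM in control replicates 1, 2 and 3 and at 146, 141 and 174 RPKM in the arsenic trioxide replicates, in that order, as are all values below. One treated library lay within the range of the controls, and the change on the log2(RPKM + 1) scale was -0.20 ± 0.09 SE (limma-trend adjusted p = 0.152, and 0.031 without arsenic trioxide replicate 3). It made up 13.2% to 16.3% of all member reads. SNORA71C followed at a mean of 95.3 ± 11.4 RPKM in controls (SD, n = 3), then SNORA71A at 79.6 ± 5.87 RPKM, SNORA74 on chromosome 5 (SNORA74D in the annotation) at 57.9 ± 8.42 RPKM and SNORA75 on chromosome 2 at 51.0 ± 9.47 RPKM. The last 2 of these did not differ beyond their spread. Below them SNORA33, SNORA28 and SNORA26 stood at 44.9 ± 4.48, 44.6 ± 2.73 and 43.4 ± 1.41 RPKM and could not be ranked among themselves. Over all members the mean RPKM ran from 1.09 to 165 with a median of 6.23.

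**Figure D1:**
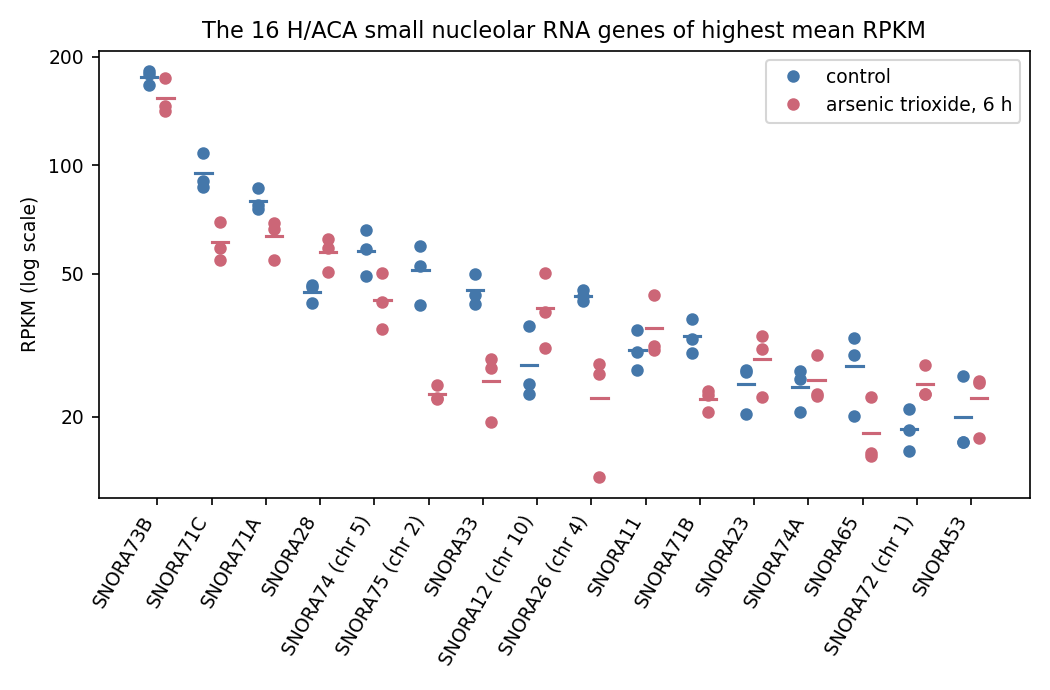
RPKM on a log axis for the 16 members of highest mean RPKM, with 1 point per library (blue control, red arsenic trioxide for 6 h) and a line at each group mean. SNORA73B lies between 141 and 182 RPKM in all libraries. The 3 treated points of SNORA71C, SNORA71A, SNORA71B, SNORA75, SNORA33 and SNORA26 lie below the 3 controls. Those of SNORA28 and of SNORA72 on chromosome 1 lie above.

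Summed over members, the reads came to 4839, 4706 and 5430 in the controls and to 4451, 4620 and 4788 in the treated libraries. Scaled to 1000000 counted reads these were 240, 243 and 240 against 199.6, 218 and 218. Without SNORA73B the scaled values were 202, 209 and 204 against 169.8, 189 and 182. The groups did not overlap in either sum. Since these are bulk samples, fewer cells of a type and less RNA per cell cannot be told apart.

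The comparison asks which members differ in level after 6 h of arsenic trioxide. Differences are given on the log2(RPKM + 1) scale, which understates the change of low genes, with the standard error of limma-trend fitted over the 16803 genes whose mean reached 1 RPKM, and a gene was called at a Benjamini-Hochberg adjusted p under 0.05. Of the 134 members 34 (25.4%) were called, where 25.4% of all tested genes were. Of these 14 were higher (12% of all genes) and 20 lower (13.4% of all genes) after arsenic trioxide, and 2 of the 14 had passed the level through the treated group alone. The share of calls thus equals the background and is no result about the members. The median log2 fold change was -0.02 over members and -0.0033 over all tested genes. In 51 members the groups did not overlap (38.1%, against 44.6% of all genes), 18 with the treated libraries above and 33 with them below. The count of higher members was 6 without arsenic trioxide replicate 2 and 9 without replicate 3, and that of lower members 11 without control replicate 2.

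The direction of the calls differed with depth among members, and also over all genes. Among the 61 members with at least 20 mean reads, 6 were higher and 17 lower (37.7% called, median -0.24). Among all genes with at least 20 mean reads 27.5% were called, and among those with 20 to 800, the span of these members, 21.8% were called, 10.4% higher and 11.4% lower. Among the 73 members with fewer reads, 8 were higher and 3 lower (15.1% called, median 0.06), beside 11.4% of all genes of that depth. Over all genes, 1877 of the 2021 called higher and 2154 of the 2252 called lower had at least 20 mean reads. Calls on fewer reads were thus more often higher than lower over all genes too, so this lean is not particular to the members. A like split ran along the annotation, with 4 higher and 14 lower of 61 members with a SNORA symbol (median -0.24) and 10 higher and 6 lower of the 73 with an Rfam number (median 0.17). The 8 and the 10 higher members both include SNORA18 on chromosome 5 and SNORA72 on chromosome 2. These had passed the level through the treated group alone and support neither contrast. Neither contrast was tested.

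**Figure D2:**
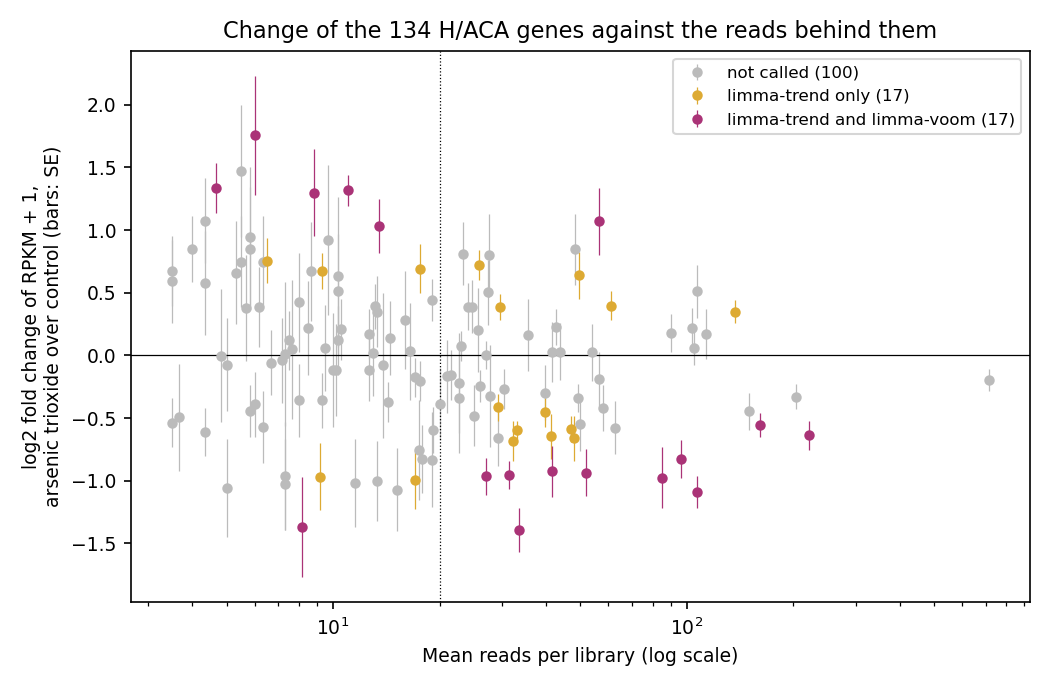
Log2 fold change of RPKM + 1 (bars, SE) of each of the 134 members against its mean reads per library on a log axis, with the dotted line at 20 reads. Of the 34 called members 17 were also called by limma-voom (purple) and 17 were not (yellow), and to the right of the line 17 of 23 called points lie below 0.

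Few reads limit these calls. For 20 of the 34 called members the limma-trend standard error was below the error that read counting alone would give on this scale, a case met in 52 members and in 6.52% of all tested genes. Limma-voom, which weights whole reads recovered from the RPKM values by their depth, called 17 members, 6 higher and 11 lower. This was a smaller share than the 31.1% of all tested genes, and all 17 were among the 34. By the authors' deposited table, which lists an adjusted p for 130 members, 14 were under 0.05, 4 higher and 10 lower. This too was a smaller share than the 29.4% of the tested genes. Of the 14, 12 were among the 34 and among the 17 of limma-voom. SNORA18 on chromosome 5 was among the higher members of limma-voom and of the authors, and SNORA72 on chromosome 2 among those of limma-voom. Both had passed the level through the treated group alone, so these calls give no support. Of the 28 called members named by rule, 11 kept their call in every setting that tested them: limma-voom, a median-ratio scaling, other pseudocounts and filters, the replicate block, and each library left out in turn. Of these, SNORA75 on chromosome 2, SNORA13, SNORA33, SNORA71B, SNORA71C, SNORA74 on chromosome 10, SNORA79 and SNORA42 on chromosome 16 fell. Each of them was also under 0.05 in the authors' table. SNORA63 on chromosome 1 and SNORA81 on chromosome 3 rose, but were not under 0.05 there (authors' adjusted p = 0.0789 and 0.0816). The filter of at least 20 mean reads did not test either. SNORA72 on chromosome 2 rose too (authors' adjusted p = 0.0956). It gives no support because it passed the level through the treated group alone.

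SNORA75, also called U23 and encoded in an intron of the nucleolin gene, stood at 40.8, 59.6 and 52.6 RPKM in controls and at 24.5, 22.4 and 22.6 RPKM after arsenic trioxide, from 113, 158 and 163 reads against 75, 65 and 68. All treated libraries lay below all controls, and the ratio of group means was 0.454 (a log2 fold change of -1.09 ± 0.13 SE at a limma-trend adjusted p of 0.0023). SNORA33, from the ribosomal protein gene RPS12, stood at 49.9, 43.7 and 41.2 RPKM and then at 19.3, 29 and 27.3 RPKM. The groups were apart here as well (-0.82 ± 0.15 SE, adjusted p = 0.00994). SNORA13, from the non-coding RNA EPB41L4A-AS1, stood at 16.4, 14.4 and 14.6 RPKM and then at 6.41, 7.10 and 8.55 RPKM. Its highest treated value was well under its lowest control value, and it fell by 0.96 on the log2 scale (SE 0.11, limma-trend adjusted p = 0.00207), from 37 to 44 reads per library to 19 to 25.

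SNORA42 on chromosome 16, a copy with an Rfam number, had the largest fall of members with at least 20 mean reads. It went from 15.03, 19.5 and 18.0 RPKM to 5.31, 8.04 and 5.06 RPKM, with 41 to 55 reads in the controls and 15 to 23 in the treated libraries. The ratio of group means was 0.35 (-1.39 ± 0.17 SE, limma-trend adjusted p = 0.0025). It has no same-strand host in the table, and ZNF771, a zinc finger gene on the other strand, was at -0.31 (adjusted p = 0.247). SNORA79, from an intron of the ubiquitin ligase gene CCNB1IP1, went from 19.7, 25.8 and 20.9 RPKM to 10.6, 14.7 and 8.61 RPKM (-0.93 ± 0.19 SE, limma-trend adjusted p = 0.0125). SNORA74 on chromosome 10 (SNORA74C-2 in the annotation), a relative of U19, went from 8.62, 7.19 and 10.3 RPKM to 3.57, 3.76 and 4.53 RPKM (-0.97 ± 0.15 SE, limma-trend adjusted p = 0.00484). In both the groups did not overlap. SNORA74C-2 and its neighbour SNORA74C-1 share 98.0% of their bases, so the division of reads between them is uncertain.

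SNORA26, from the non-coding host DANCR, went from 43.4, 44.9 and 42.1 RPKM to 13.6, 26.3 and 28.0 RPKM. The controls lay close together and the treated libraries were spread more widely below them, with arsenic trioxide replicate 1 lowest. The log2 fold change was -0.98 ± 0.25 SE (limma-trend adjusted p = 0.0276), and without control replicate 1, 2 or 3 the adjusted p was 0.0702, 0.0764 or 0.066. Other members that fell had smaller changes or fewer reads. SNORA7B had a log2 fold change of -0.99 (limma-trend adjusted p = 0.0234) on 17 to 31 reads in controls and 9 to 13 after treatment, and SNORA5C, from the mitochondrial RNA regulator gene TBRG4, one of -0.65 (0.0397). A copy of SNORA75 on chromosome 12 (chr12:9286673-9286822) had a change of -0.68 (0.021), a copy of SNORA19 in EIF3A one of -0.97 (0.0376) on 3 to 15 reads, and SNORA68 (SNORA68B in the annotation) one of -1.37 (0.0444) on 10 to 15 reads in controls and 1 to 9 after treatment. For these 5 the call was lost with single libraries left out. This held for SNORA7B without control replicate 1 or 2 or arsenic trioxide replicate 1 or 2 (adjusted p = 0.0506 to 0.0727 with limma-trend), and for SNORA5C without control replicate 2 or any 1 treated library (0.072 to 0.103). It held for SNORA75 on chromosome 12 without control replicate 1 or 2 or arsenic trioxide replicate 1 (0.0616 to 0.0664), for SNORA19 without control replicate 1 or 2 or arsenic trioxide replicate 2 or 3 (0.0702 to 0.109), and for SNORA68 without any 1 control or arsenic trioxide replicate 1 or 2 (0.0881 to 0.122). Limma-voom did not call SNORA7B, SNORA5C, SNORA75 on chromosome 12 or SNORA19 (adjusted p = 0.0678, 0.109, 0.0891 and 0.103). The 3 SNORA75 copies on chromosome 12 share 96% to 98.7% of their bases, so the division of reads among them is uncertain. The others, named after their values were seen, were at -0.59 (chr12:31076867-31077016, limma-trend adjusted p = 0.009085) and 0.03 (chr12:9445058-9445205, 0.959). Limma-voom did not call the copy at -0.59 (adjusted p = 0.083).

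SNORA28, a guide RNA in an intron of the translation initiation factor gene EIF5, had the most reads of the members that rose. It stood at 46.4, 45.9 and 41.4 RPKM in controls and at 50.5, 62.2 and 58.9 RPKM after arsenic trioxide, with 112 to 118 reads against 142 to 166. The groups did not overlap, though the lowest treated value was near the highest control value. The ratio of means was 1.28 (0.35 ± 0.09 SE, limma-trend adjusted p = 0.0287). The call was lost without control replicate 3 (0.0866), arsenic trioxide replicate 2 (0.0806), arsenic trioxide replicate 3 (0.0765), control replicate 2 (0.0634) or control replicate 1 (0.0526), and with limma-voom (0.147).

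SNORA81 on chromosome 21, a copy with an Rfam number in an intron of the superoxide dismutase gene SOD1, went from 9.79, 10.5 and 7.0 RPKM to 13.2, 28.3 and 21.1 RPKM, on 28 to 36 reads against 52 to 106. All treated libraries were above the controls, with a spread among them larger than that of the controls. The ratio of means was 2.29 (1.07 ± 0.27 SE, limma-trend adjusted p = 0.0273), and without control replicate 1, 2 or 3 or arsenic trioxide replicate 2 or 3 the adjusted p was 0.0507 to 0.0779. SNORA81 on chromosome 3, with no listed enclosing gene, rose from 8, 5 and 8 reads to 16, 16 and 28 reads (1.03 ± 0.21 SE, limma-trend adjusted p = 0.0145). The remaining copy, on chromosome 18, was at 3, 1 and 1 reads and at 5, 4 and 10 reads (0.85, adjusted p = 0.0541), and passed the level through the treated group alone.

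Other members that rose had few reads. SNORA70 on chromosome 1, on the opposite strand to the myosin phosphatase subunit gene PPP1R12B (0.60), rose from 6.71, 9.19 and 6.75 RPKM to 12.9, 13.2 and 12.7 RPKM (0.72 ± 0.12 SE, limma-trend adjusted p = 0.00697, and 0.0884 with limma-voom). SNORA63 on chromosome 1, on the opposite strand to INPP5B (0.49), rose from 6, 5 and 5 reads to 15, 17 and 18 reads. That is 3.20 ± 0.468 RPKM against 9.44 ± 0.99 RPKM (SD, n = 3 each), a ratio of 2.95 (1.32 ± 0.12 SE, limma-trend adjusted p = 0.00107). The 2 called members that passed the level through the treated group alone are given by their reads only. SNORA72 on chromosome 2, in no listed gene, had 1, 2 and 1 reads in controls and 8, 10 and 6 after arsenic trioxide. SNORA18 on chromosome 5 had 0, 3 and 0 reads and then 11, 18 and 4, and its call was lost without control replicate 1 or 3 or arsenic trioxide replicate 1 or 2 (limma-trend adjusted p = 0.0899 to 0.098).

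The rest of the named members that rose were SNORA14A in the cytochrome P450 reductase gene POR (1.30, limma-trend adjusted p = 0.0344), SNORA46 on chromosome 14 in the HSP90 cochaperone gene AHSA1 (0.64, adjusted p = 0.0463) and SNORA47 in ZBED3 (0.67, adjusted p = 0.0149). The call of SNORA14A was lost without control replicate 2 or 3 or any 1 treated library (0.0679 to 0.099), that of SNORA46 without any 1 of the 6 libraries (0.0525 to 0.123) and with limma-voom (0.0965), and that of SNORA47 with limma-voom (0.202) but with no library left out. Other named members were not called with all libraries. SNORA12 on chromosome 10 stood at 35.7, 23.2 and 24.7 RPKM and at 31.1, 39.2 and 50.1 RPKM (0.51, adjusted p = 0.117). SNORA74B stood at 30, 35 and 28 reads and at 38, 74 and 84 reads (0.85, limma-trend adjusted p = 0.07, and 0.00787 without arsenic trioxide replicate 1). SNORA11B was at 0.81 (0.0529, and 0.0173 without control replicate 3), and SNORA53, which overlaps an exon of another gene, at 0.17 (0.564).

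Copies that share a symbol did not all behave alike. The 4 listed SNORA25 genes, all with Rfam numbers and on different chromosomes, had log2 fold changes of 0.80 (chromosome 3), 0.69 (chromosome 8), 0.76 (chromosome 16) and 0.59 (chromosome 10, which passed the level through the treated group alone and was named after its value was seen). Those on chromosomes 8 and 16 were called (limma-trend adjusted p = 0.0414 and 0.0216) on means of 17.7 and 6.5 reads. The copy on chromosome 8 lost its call without control replicate 1 or 3 or arsenic trioxide replicate 2 or 3 (0.0849 to 0.11), and that on chromosome 16 without control replicate 2 or 3 or arsenic trioxide replicate 2 (0.0621 to 0.0664). Neither was called by limma-voom (0.165 and 0.187). The copy on chromosome 3 was called without control replicate 2 (0.0129). The 5 SNORA74 genes were at -0.45 (chromosome 5), -0.97 and -1.02 (the near-identical neighbours on chromosome 10), -0.48 (chromosome 12) and -0.36 (chromosome 17), of which SNORA74C-2 on chromosome 10 was called with all libraries. The copies at -1.02, -0.48 and -0.36 and the SNORA72 genes on chromosomes 1 and 3 were named after their values were seen. The SNORA72 genes on chromosomes 1 and 3 were called in opposite directions, at 0.40 (limma-trend adjusted p = 0.045) and -0.60 (0.00227), and neither was called by limma-voom (adjusted p = 0.219 and 0.111).

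Levels of members were then set against those of their hosts, for 80 members whose enclosing same-strand gene was itself tested, in 73 host genes. The member and its host had changes of the same sign in 58 of 80 pairs, and in 33 of the 44 pairs whose member had at least 20 mean reads. Across the 80 pairs Pearson's r of the log2 fold changes was 0.53 and Spearman's rho 0.55, and across the 44 they were 0.43 and 0.45. The points share libraries, some share a host, and reads of unspliced host RNA can be counted for the member, so these are descriptions without a test. The host exceeded its member in RPKM in all but 11 pairs. Of the 22 called members with a tested host, 13 had a host called in the same direction, 9 a host that was not called, and 0 a host called in the opposite direction. Among the 8 that were higher 6 hosts were called higher too. Among the 14 that were lower 7 hosts were called lower and 7 were not called. For all tested genes with at least 20 mean reads, 12.8% were called higher and 14.7% lower. The counts of shared sign and shared calls were not set against those of other genes that lie within a host. They are thus not shown to be particular to the members.

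**Figure D3:**
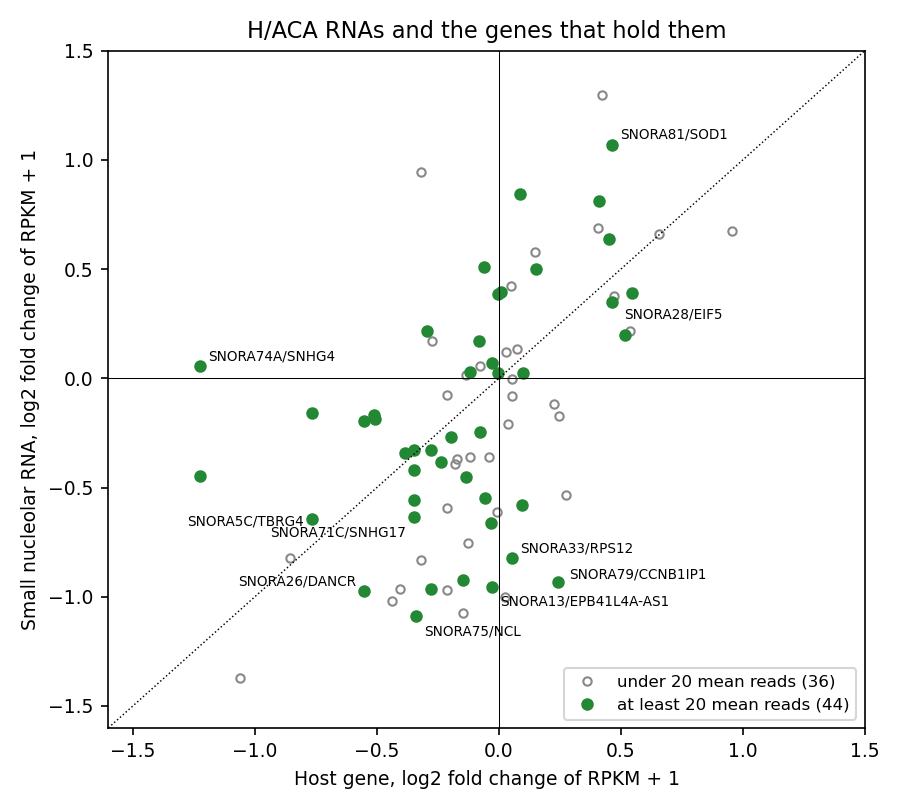
Log2 fold change of RPKM + 1 of the member (vertical axis) against that of its host gene (horizontal axis) for 80 pairs, filled where the member had at least 20 mean reads (44), with the dotted line marking equal change. Same-sign pairs make up 58 of the 80, and SNORA33, SNORA13 and SNORA79 lie far below 0 where their hosts are near 0 or above it.

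The difference in response between a member and its host was tested in 1 fit over all 1947 nested pairs of the table, whatever the kind of inner gene. With limma, 1 of these pairs (0.0514%) and 0 of the 80 member pairs passed an adjusted p of 0.05. At an unadjusted p under 0.05 there were 17 member pairs (21.2%, against 9.81% of all nested pairs), 12 in which the member changed downward relative to the host and 5 in which it changed upward. The lowest adjusted p, 0.0575, belonged to SNORA74A and SNHG4, followed by 0.0937 for SNORA33 and RPS12 and for SNORA13 and EPB41L4A-AS1. When pairs were limited to inner genes with a mean of at least 20 reads, 1322 pairs remained, of which 19 passed, and all 3 of these were among them (adjusted p = 0.00874, 0.0425 and 0.0425). No other of the 44 member pairs passed there.

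SNHG4, a host RNA on chromosome 5 that also lies within the span of MATR3, fell from 25.4 ± 2.28 to 10.3 ± 0.511 RPKM (SD, n = 3 each, log2 fold change -1.23, limma-trend adjusted p = 0.00037). It holds SNORA74A, also called U19, a guide for the large-subunit ribosomal RNA. SNORA74A stood at 26.8, 20.6 and 25.5 RPKM in controls and at 22.9, 29.8 and 23.2 RPKM after treatment, and its groups overlapped (0.06 ± 0.13 SE, limma-trend adjusted p = 0.79). The difference between the changes of member and host was 1.28 ± 0.19 SE. The other member in this host, SNORA74 on chromosome 5, stood at 58.6, 49.1 and 65.9 RPKM and at 41.7, 50.2 and 35.2 RPKM (-0.45 at a limma-trend adjusted p of 0.0688, and 0.0399 without arsenic trioxide replicate 2). Its change relative to the host was 0.78 ± 0.20 SE (limma unadjusted p = 0.00515, adjusted p = 0.256). SIL1, which encloses SNORA74A and this SNORA74 on the opposite strand, fell as well (-0.61, limma-trend adjusted p = 0.012). For SNORA73B the changes were -0.20 for the member, -0.55 for the first host RCC1, which encodes the exchange factor of the GTPase Ran, and -0.83 for SNHG3, the other gene whose span holds it (limma-trend adjusted p = 0.152, 0.00319 and 0.000368). Its difference from RCC1, 0.36 ± 0.17 SE, did not pass (limma unadjusted p = 0.0641, adjusted p = 0.533).

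SNHG17 on chromosome 20 (chr20:38420588-38435353) fell from 42.9 ± 1.31 to 33.6 ± 2.76 RPKM (-0.35 at a limma-trend adjusted p of 0.0141) and holds 4 members of the SNORA71 group, which guide modification of the small-subunit ribosomal RNA. SNORA71C went from 90.5, 108 and 87.1 RPKM to 69.6, 54.6 and 58.7 RPKM (-0.64 ± 0.11 SE, limma-trend adjusted p = 0.00896). SNORA71B, a longer gene model of 272 bases, went from 37.5, 30.0 and 33.0 RPKM to 20.6, 23.1 and 23.6 RPKM (-0.56 ± 0.09 SE, limma-trend adjusted p = 0.00734). In both no treated library reached a control. SNORA71A was at 75.4, 86.3 and 77.2 RPKM and at 68.9, 66.6 and 54.7 RPKM, again without overlap, and just missed the threshold (-0.33 ± 0.10 SE, limma-trend adjusted p = 0.0512). SNORA71D, named after its values were seen to complete the set, was at -0.42 (adjusted p = 0.138). The changes of these 4 relative to SNHG17 were between -0.29 and 0.02, and none passed even an unadjusted p of 0.05 with limma.

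**Figure D4:**
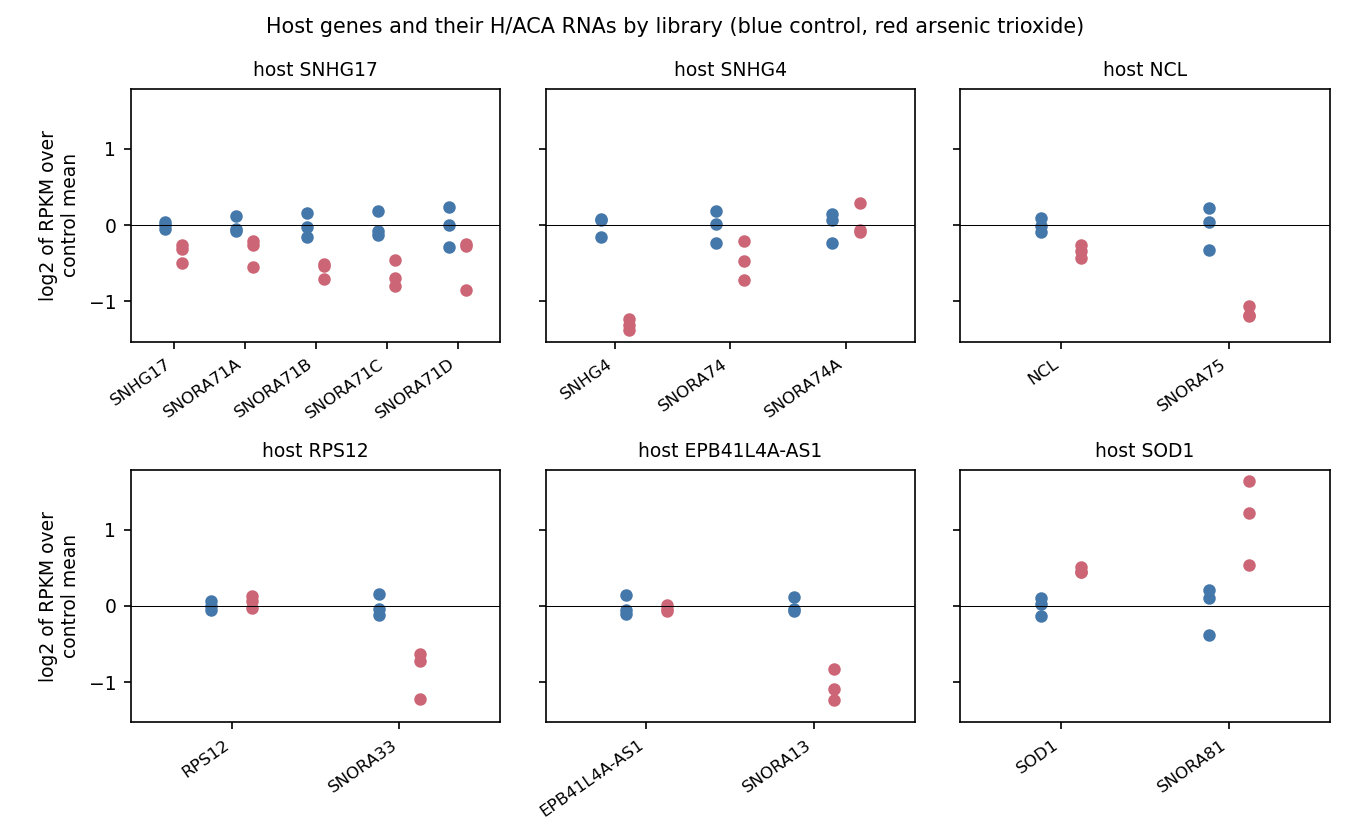
Log2 of RPKM over the control mean for 6 host genes and the members they hold, with 1 point per library (blue control, red arsenic trioxide). Treated points of SNHG17 and its 4 members lie on the same side, those of SNHG4 lie far below 0 while SNORA74A stays around 0, and those of SNORA33 and SNORA13 lie below 0 while RPS12 and EPB41L4A-AS1 stay around 0.

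Ribosomal protein genes hosted 4 members, and 3 of these fell with limma-trend (median -0.74), where 13.4% of all tested genes were lower. All 4 had at least 20 mean reads, and of the 61 members of that depth 17 were lower. This grouping was not set in advance, and no difference from other members was tested. Limma-voom called 2 of the 4. RPS12 itself was at 250.1 ± 10.6 and 259.9 ± 13.4 RPKM (SD, n = 3 each, log2 fold change 0.06, limma-trend adjusted p = 0.572) where SNORA33 fell, and SNORA33 changed by -0.88 ± 0.17 SE relative to it. SNORA66 in RPL5 went from 17.1, 21.7 and 24.3 RPKM to 13.5, 15.6 and 9.92 RPKM (-0.66 ± 0.18 SE, limma-trend adjusted p = 0.0361), while RPL5 was at -0.03. FAM69A, which encloses SNORA66 on the opposite strand, fell (-0.50, limma-trend adjusted p = 0.0256). SNORA3B in RPL27A went from 23.1, 14.98 and 21.9 RPKM to 10.3, 12.3 and 7.64 RPKM (-0.92 ± 0.20 SE, limma-trend adjusted p = 0.018), while RPL27A was at -0.15. In both the groups did not overlap. Without 1 library the adjusted p of SNORA66 reached 0.104 (without control replicate 3), and the call was also lost without control replicate 2 or arsenic trioxide replicate 1 or 3 and with limma-voom (0.0749). That of SNORA3B was 0.0554 or 0.0582 without control replicate 1 or 3. The fourth, SNORA65 in RPL12, named after its values were seen, had 87, 75 and 59 reads against 46, 43 and 65 (-0.58, adjusted p = 0.0864), while RPL12 was at 0.10. EPB41L4A-AS1 stood at 6.62 ± 0.621 and 6.46 ± 0.173 RPKM (-0.03) where SNORA13 fell, a difference of -0.93 ± 0.18 SE. CCNB1IP1 was at 0.24 (adjusted p = 0.179) where SNORA79 fell, with a difference of -1.18 ± 0.28 SE (limma unadjusted p = 0.00283, adjusted p = 0.22).

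In other pairs the host moved with its member. NCL, which encodes the nucleolar protein nucleolin, fell from 180.3 ± 11.5 to 142 ± 8.31 RPKM (-0.34 at a limma-trend adjusted p of 0.0152), less than its SNORA75, with a difference of -0.75 ± 0.19 SE (limma unadjusted p = 0.00433, adjusted p = 0.241). TBRG4 fell (-0.77, limma-trend adjusted p = 0.0031) with SNORA5C at -0.65. The other member in TBRG4, SNORA5A (singled out with its values known), stood at -0.16 (adjusted p = 0.594), a difference of 0.61 ± 0.27 SE from the host (limma unadjusted p = 0.0537, adjusted p = 0.506). The endosomal regulator gene ANKRD27 fell (-1.06, adjusted p = 0.000822) with SNORA68 at -1.37. DANCR was at -0.55 (limma-trend adjusted p = 0.0529, and 0.0458 without control replicate 1) where SNORA26 was at -0.98. EIF5 rose from 64.6 ± 8.06 to 89.2 ± 5.13 RPKM (0.46 at a limma-trend adjusted p of 0.0135) with SNORA28 at 0.35. SOD1 rose from 73.2 ± 6.16 to 101 ± 2.75 RPKM (0.46 at a limma-trend adjusted p of 0.00506), AHSA1 by 0.45 (0.00352) and ZBED3 by 0.96 (0.00311), each with a member that rose. POR (0.42, limma-trend adjusted p = 0.0266) and FAM49B (0.41, 0.00896) were called higher with SNORA14A and the SNORA25 of chromosome 8. TIMM23B (-0.28, limma-trend adjusted p = 0.0287) and EIF3A (-0.21, 0.0453) were called lower with SNORA74C-2 and the copy of SNORA19. The calls of POR, TIMM23B and EIF3A were lost with any single library left out (0.0542 to 0.123), except arsenic trioxide replicate 2 for POR and EIF3A. Hosts of uncalled members were at 0.41 for C14orf159 (SNORA11B, limma-trend adjusted p = 0.00465), 0.09 for ATP6V0E1 (SNORA74B, 0.35), -0.06 for CWF19L1 (SNORA12, 0.504), -0.08 for SLC25A3 (SNORA53, 0.517) and 0.28 for STIM1 (SNORA7, 0.136, and 0.0443 without arsenic trioxide replicate 3). The differences of SNORA81 from SOD1 (0.60 ± 0.30 SE) and of SNORA28 from EIF5 (-0.11 ± 0.15 SE) did not pass an unadjusted p of 0.05 with limma.

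The proteins that make and mature H/ACA particles were counted over a list of 23 tested genes, chosen with earlier results of these data known. After arsenic trioxide 1 of the 23 was higher and 9 were lower with limma-trend, beside 12% and 13.4% of all tested genes, with a median log2 fold change of -0.11. Most of the 23 had more than 800 mean reads, and deeper genes were called more often. Over all genes 11.4% were lower at 20 to 800 mean reads and 14.7% at 20 or more. The share above 800 mean reads alone, the closer one for this list, is thus above 14.7% and was not worked out. The count of lower genes on the list was 6 with the replicate block, without control replicate 1 and without control replicate 3. NAF1, which escorts the nascent particle and gives way to GAR1, fell from 14.0, 13.4 and 12.9 RPKM to 8.35, 8.51 and 8.02 RPKM (-0.63 ± 0.07 SE, limma-trend adjusted p = 0.00175). NOLC1, the nucleolar and Cajal body chaperone that binds these particles, fell from 162, 159 and 171 RPKM to 111, 113 and 107 RPKM (-0.57 ± 0.06 SE, adjusted p = 0.00113). In both the groups were far apart. TCOF1, the treacle protein of the nucleolus, fell (-0.59, adjusted p = 0.00589), as did WRAP53, which brings H/ACA RNAs to Cajal bodies (-0.51, adjusted p = 0.0111), the exosome subunit EXOSC3 (-0.53, adjusted p = 0.0065) and the assembly ATPase RUVBL1 (-0.36, adjusted p = 0.0265). The nuclease DIS3 (-0.35, limma-trend adjusted p = 0.0108) and the cap-binding subunit NCBP2 (-0.21, adjusted p = 0.0487) were the other called genes that were lower.

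Among the 4 core proteins only GAR1 was called, from 31.5, 29.3 and 32.8 RPKM to 22.0, 26.9 and 20.7 RPKM (-0.42 ± 0.10 SE, limma-trend adjusted p = 0.0255). With control replicate 1 or 3 left out the adjusted p was 0.068 or 0.0795, and with arsenic trioxide replicate 1 or 3 left out 0.0778 or 0.0629. DKC1, the pseudouridine synthase, was at 89.8, 73.8 and 71.5 RPKM and at 62.8, 62.4 and 66.5 RPKM. Its groups did not overlap (-0.28 ± 0.09 SE), and the adjusted p was 0.0607 with limma-trend and 0.02 with limma-voom. NHP2 (-0.08, adjusted p = 0.622) and NOP10 (-0.10, adjusted p = 0.431) overlapped between the groups. SHQ1, the chaperone that holds dyskerin before assembly, was at -0.30 (limma-trend adjusted p = 0.0681, 0.0265 with limma-voom and 0.0299 without arsenic trioxide replicate 3). The only gene of the list that rose was the cytoplasmic exonuclease gene XRN1, from 7.50, 8.66 and 8.15 RPKM to 11.1, 11.6 and 11.0 RPKM (0.43 ± 0.08 SE, limma-trend adjusted p = 0.00975). Limma-voom gave 1 higher and 11 lower genes on this list.

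**Figure D5:**
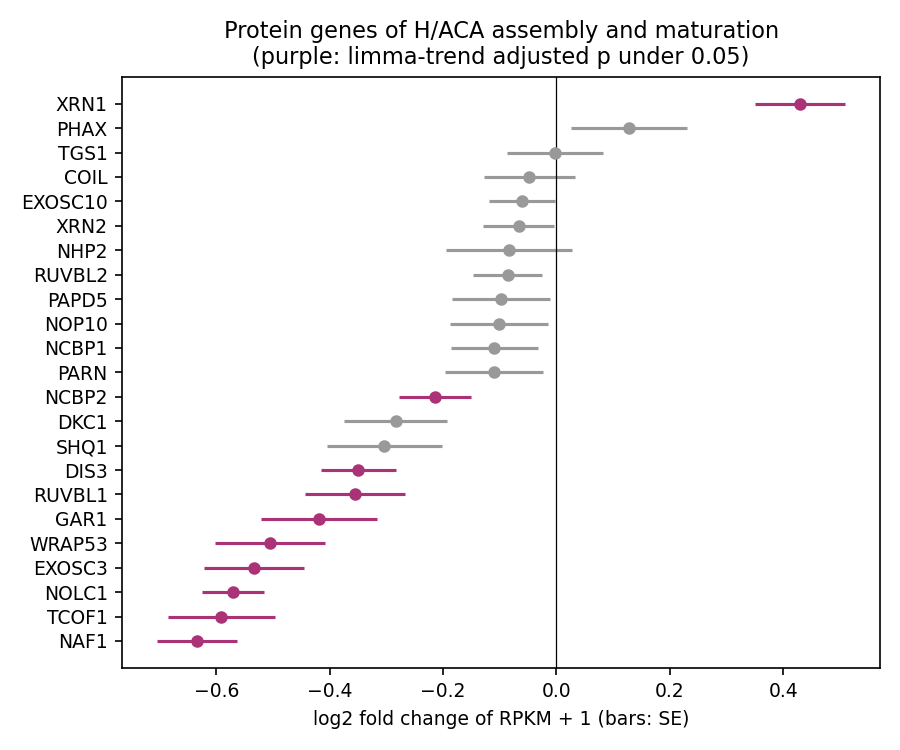
Log2 fold change of RPKM + 1 (bars, SE) for 23 genes of H/ACA particle assembly and RNA maturation, purple where the limma-trend adjusted p was under 0.05. XRN1 stands to the right of 0 at 0.43, and the 9 purple genes to the left run from -0.21 (NCBP2) to -0.63 (NAF1).

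Library totals were 19361333 to 22609019 reads, with no gap between the groups. Of the promyelocyte markers listed in the table, which were MPO, CTSG, CD33, AZU1 and PRTN3 (5 of 6), the summed level was 998 to 1389 RPKM in controls and 666 to 1006 RPKM after arsenic trioxide. The T cell list had 1 of 4 markers in the table, at 3.04 to 4.22 RPKM over all libraries, the epithelial list 1 of 3 (EPCAM, 4.50 to 6.72 RPKM) and the erythroid list 0 of 3. Whether these levels have a part in the results on the small RNAs was not tested.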

How the data were processed

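Ribosome-depleted total RNA of NB4 cells was measured in 3 control and 3 arsenic trioxide libraries, grouped by the labels. Tools in the submitters' processing notes are HISAT2 2.1.0, HTSeq and DESeq2, with the build hg38 and no parameters. Per the file headers, the authors removed duplicate reads. The deposited table holds RPKM per gene, scaled by the authors to exon length and to reads counted in genes. Per the file headers it also holds the authors' mean normalized signal, a log2 fold change with its error, a test score, and p-values raw and adjusted, quoted only where named.

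Whole reads were recovered from RPKM with exon lengths of GENCODE 29 and a single total for each library. Reads were whole, within 0.01, in every library for 93.0% of genes, and for 100% once the deposited mean signal settled the length. The sources used here do not say whether a read stands for a pair. Library totals were 19361333 to 22609019 reads, and chi-square per degree of freedom between libraries of a group was 5.48 to 13.5, so none is a copy.

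Because the file holds RPKM, the test for normalized values replaced the count test. Log2(RPKM + 1) of the 16803 genes whose mean reached 1 RPKM was fitted with limma 3.58.1 in trend mode (R 4.3.3), treatment as the only term, Benjamini-Hochberg adjusted over all of them, after checks on simulated data. Members minus hosts were fitted in the same way over 1947 nested pairs, the prior variance trended on the inner gene's level. The members and gene lists were chosen with earlier results of these data known.

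Members named with values were, by rule, the 25 called ones of largest change, the 10 with most reads, the 5 largest rises and 5 largest falls among those with at least 20 mean reads, and the 3 nearest the level of 1 RPKM, with their hosts. Alternatives were the replicate number as a block, median-ratio factors, no filter, at least 20 mean reads, pseudocounts 0.1 and 5, limma-voom on recovered reads, each library left out, and genes outside other exons only. TERC was not analysed here, and 1 marker list and 1 member's sequence are not reported here.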

Additional observations from a re-analysis of the deposited data

How the results depend on the processing

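No called change of a member named by rule turned direction in any setting. Of 28 called members named by rule 11 kept the call in all settings that tested them and 17 lost it in at least 1 of 13. The cause was not tested. Called members named only after their values were seen were not followed in this way. Members called higher (14) numbered 8 with at least 20 mean reads, where fewer members were tested, 6 with limma-voom, and 6 to 11 with 1 library left out. Members called lower (20) numbered 11 with limma-voom and 11 to 19 with 1 library left out. Over all genes the higher count (2021) was 1331 to 1525 and the lower count (2252) 1427 to 1908 with 1 library left out. Member pairs that differed from their host (0) numbered 3 with at least 20 mean reads and 1 with a pseudocount of 5, and all nested pairs (1) numbered 19 and 9 there, 0 with a pseudocount of 0.1, and 0 to 0 with 1 library left out. With the replicate number as a block, 11 members were higher and 18 lower, 0 nested pairs were called, and over all genes 1460 were higher and 1616 lower. Same-numbered libraries deviated from their group means with correlations of -0.085, 0.148 and -0.083. These values show no shared deviation by number, but they cannot tell whether such libraries were handled together. Counts of H/ACA protein genes were within 1.5 times of 1 higher and 9 lower in every setting. Depth limits most members: 73 of 134 had under 20 mean reads.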

Other observations

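The other small RNA classes of the table gave these values. Of 63 tested box C/D RNAs (SNORD genes, which guide ribose methylation) 3 were higher and 18 lower with limma-trend (median log2 fold change -0.42), and 2 and 7 with limma-voom. Over all tested genes limma-trend called 12% higher and 13.4% lower. Of 22 tested small Cajal body RNAs (SCARNA genes, which guide modification of spliceosomal RNAs) 1 was higher, SCARNA3 with a log2 fold change of 0.90, and 0 were lower. Limma-voom also called 1 higher. The unadjusted limma-trend p was under 0.05 in 7 of the 22, beside 6586 of all 16803 tested genes. Whether the shares of C/D and small Cajal body RNAs differ from that of H/ACA RNAs was not tested. Among the core proteins of C/D particles NOP56 (-0.48, limma-trend adjusted p = 0.00589), NOP58 (-0.28, adjusted p = 0.0323) and SNU13 (-0.40, adjusted p = 0.0121) fell, and the methyltransferase gene FBL was at -0.12 (adjusted p = 0.257).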
